A study of Homo sapiens with 6 samples.

Results

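AN3-CA endometrial cancer cells given the FGF receptor inhibitor AZD4547 together with acidic fibroblast growth factor (aFGF, also FGF1) were compared with unstimulated AN3-CA cells given DMSO. The 4 arrays of this comparison, chosen by their treatment labels, were 4 of the 6 in the series. The 2 AZD4547 cultures received 300 nM AZD4547 and 10 ng/mL aFGF, and the 2 DMSO cultures received the vehicle and no growth factor. A further 2 cultures received DMSO and 10 ng/mL aFGF, and their values are set beside those of both groups. Cells of all groups grew for 24 h after plating, and the treatments were then applied in medium without serum for 18 h before RNA extraction. The comparison addressed which transcripts the cells keep up through FGF receptor signalling when no ligand is added. It held no cultures with AZD4547 and without aFGF, so the parts of AZD4547 and of aFGF in a difference cannot be told apart. The amount of DMSO in the AZD4547 cultures is not given in the labels.

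FGF receptors are receptor tyrosine kinases that dimerise when a ligand binds and pass the signal through the adaptors FRS2 and GRB2 to RAS, RAF, MEK and ERK. ERK switches on immediate early transcription factors within minutes and then its own inhibitors, the DUSP phosphatases and the Sprouty proteins. AN3-CA cells are known to carry activating mutations of FGFR2 and to depend on this receptor for growth. AZD4547 inhibits the kinase activity of FGFR1, FGFR2 and FGFR3.

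Transcripts were measured on Affymetrix expression arrays, and levels below are log2 intensities of the deposited values. Each of 19040 genes was represented by its brightest probe set that carries 1 gene symbol. The cultures of a group correlated across probe sets at r = 0.9973 with AZD4547 and aFGF, 0.9973 with aFGF and 0.9966 with DMSO, and the cultures had been plated as 6 dishes, so the p-values measure the spread between dishes. The table holds no detection calls. A level below 2.87, the median over all probe sets, is called dim here, and the size of a change at dim levels is uncertain. Of 9 markers of the line, VIM (mean 12.18), HOXA10 (7.05), KRT18 (4.27) and EMX2 (3.27) lay above the dim level, whereas KRT8, PAX8, SOX17, CDH1 and EPCAM were dim. Of 31 markers of fibroblasts, endothelium, leukocytes and smooth muscle, 5 lay above it, and 0 of all 40 markers were called by limma between the groups (2 at an unadjusted p under 0.05).

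AZD4547 with aFGF left 892 of 19040 genes (4.68%) at a level different from DMSO at a limma adjusted p under 0.05. Of these, 434 were higher (2.28% of genes tested) and 458 lower (2.41%). The changes were small, with a median size of 0.37 on the log2 scale. Only 7 genes were at least 2-fold lower and 0 at least 2-fold higher, and 38 genes in each direction changed at least 1.5-fold. The groups did not overlap for 8535 genes (44.8%), among them all 892 called genes. At an unadjusted p under 0.05, 3511 genes passed. Leaving out AZD4547 replicate 1 or 2 reduced the calls to 43 or 29, leaving out aFGF replicate 1 or 2 reduced them to 225 or 220, and leaving out DMSO replicate 2 gave 1556. Without the intensity trend in the prior variance 10 genes were called, all lower, and these were called under each of the 17 alternatives in which they had a value. They were EGR1, PHLDA1, EMP1, MYC, SERPINB8, FOSL1, GDF15, TNFRSF12A, LIF and PHLDA3. The size of the falls depended on the alternative. At their smallest, PHLDA1, EMP1, FOSL1 and GDF15 fell by less than 2-fold (log2 -0.71, -0.69, -0.70 and -0.68). EGR1, MYC and SERPINB8 stayed at least 2-fold lower (-1.85, -1.25 and -1.05 at their smallest).

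**Figure D1:**
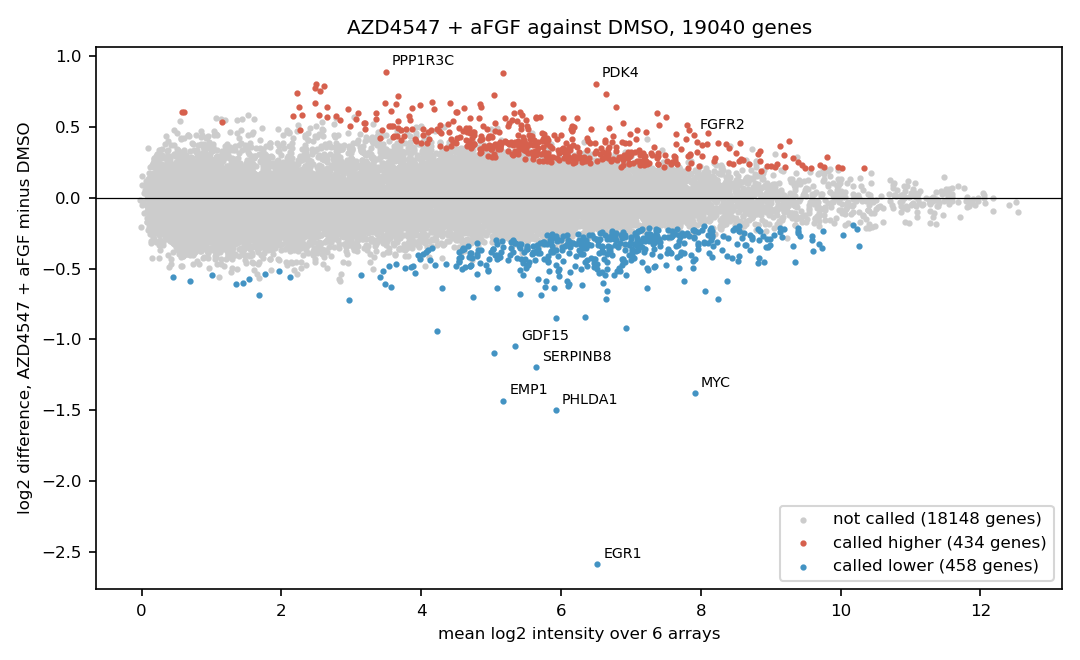
Difference between AZD4547 with aFGF and DMSO (y axis, log2) against the mean log2 intensity over 6 arrays (x axis), 1 point per gene for 19040 genes. Genes called higher (434, red) reach 0.89, and genes called lower (458, blue) reach -2.59 at EGR1.

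EGR1, an immediate early zinc finger transcription factor of the ERK pathway, fell furthest. Its level was 3.68 and 3.82 in the AZD4547 cultures, 9.48 and 9.46 in the aFGF cultures and 6.34 and 6.34 in the DMSO cultures. The AZD4547 cultures lay below both other groups with no overlap, a 6.02-fold fall against DMSO (log2 -2.59, SE 0.06, limma adjusted p = 2.7e-09). The window around its start, from 250 bases before to 50 after, is shown because it holds 2 serum response element cores (CArG boxes, in capitals), the sequence bound by serum response factor at immediate early genes. These cores start 105 and 83 bases before the gene start and were searched on both strands. They occurred in 1.29% of 35116 such windows. The sequence, like those below, is RefSeq's on GRCh38.p14, written 5′ to 3′ on the strand of the gene.
EGR1, chr5:138465229-138465528, plus strand: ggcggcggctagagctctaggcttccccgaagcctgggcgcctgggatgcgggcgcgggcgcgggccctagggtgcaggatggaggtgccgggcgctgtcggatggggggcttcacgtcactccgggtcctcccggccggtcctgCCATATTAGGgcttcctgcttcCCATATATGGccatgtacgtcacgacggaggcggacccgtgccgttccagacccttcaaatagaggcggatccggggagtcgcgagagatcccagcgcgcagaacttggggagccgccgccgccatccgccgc

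EMP1, an epithelial membrane protein, and SERPINB8, an intracellular serine protease inhibitor, fell with it. EMP1 stood at 2.86 and 2.64 in the AZD4547 cultures, 8.63 and 8.55 in the aFGF cultures and 4.16 and 4.20 in the DMSO cultures (log2 -1.43 for AZD4547 against DMSO, SE 0.09, limma adjusted p = 1.2e-05). The AZD4547 level of EMP1 was dim. SERPINB8 stood at 4.29 and 4.28 in the AZD4547 cultures, 7.21 and 7.09 in the aFGF cultures and 5.47 and 5.49 in the DMSO cultures (log2 -1.19, SE 0.07, limma adjusted p = 8.8e-06). For both genes the AZD4547 cultures were lowest, the aFGF cultures highest, and no groups overlapped. Their windows each hold 2 matches to TGANTCA (in capitals), a looser form of the AP-1 site TGAGTCA that dimers of FOS and JUN proteins bind. In each window TGAGTCA occurs beside a variant, TGATTCA in EMP1 and TGAATCA in SERPINB8. Matches to the looser form occurred in 7.71% of all windows. Counted by gene, they occurred in 8.08% of the genes tested that had a window and in 3.77% of those called lower.
EMP1, chr12:13196476-13196775, plus strand: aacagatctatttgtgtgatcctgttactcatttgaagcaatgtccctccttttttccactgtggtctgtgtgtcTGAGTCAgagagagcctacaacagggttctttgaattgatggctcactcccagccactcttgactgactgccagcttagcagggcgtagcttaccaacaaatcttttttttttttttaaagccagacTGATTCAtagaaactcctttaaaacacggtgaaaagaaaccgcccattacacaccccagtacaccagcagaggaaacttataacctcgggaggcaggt
SERPINB8, chr18:63969831-63970130, plus strand: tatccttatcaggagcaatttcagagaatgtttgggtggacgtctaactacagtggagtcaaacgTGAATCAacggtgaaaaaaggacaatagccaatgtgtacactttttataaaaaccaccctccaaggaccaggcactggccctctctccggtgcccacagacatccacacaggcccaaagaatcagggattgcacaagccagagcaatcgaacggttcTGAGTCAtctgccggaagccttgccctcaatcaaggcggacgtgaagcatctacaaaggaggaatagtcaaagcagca

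FOSL1 (FRA1), itself an AP-1 subunit, stood at 3.87 and 3.97 in the AZD4547 cultures, 6.21 and 6.18 in the aFGF cultures and 4.91 and 5.12 in the DMSO cultures (log2 -1.09, SE 0.09, limma adjusted p = 0.00013). PHLDA1, a pleckstrin homology-like protein induced by growth factors, stood at 3.80 and 3.70 with AZD4547, against 8.75 and 8.82 with aFGF and 5.36 and 5.14 with DMSO (log2 -1.50, SE 0.08). GDF15, a stress-induced cytokine of the TGF-beta superfamily, stood at 3.76 and 3.78 with AZD4547, against 7.52 and 7.33 with aFGF and 4.73 and 4.90 with DMSO (log2 -1.05, SE 0.09). These 3 genes also had their lowest cultures with AZD4547 and their highest with aFGF. The windows of PHLDA1 and GDF15 held 0 matches to the motifs searched, which says only that these letters are not in those windows.

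MYC, which drives cell growth and ribosome synthesis and is itself a target of growth factor signalling, had a level of 6.67 and 6.69 in the AZD4547 cultures, 8.96 and 9.01 in the aFGF cultures and 8.20 and 7.93 in the DMSO cultures. MYC was 2.60-fold below DMSO with AZD4547 (log2 -1.38, SE 0.08, limma adjusted p = 6.9e-06) and 0.92 above it on the log2 scale with aFGF (SE 0.08). Its distance below DMSO with the inhibitor was larger than its distance above DMSO with the ligand, while for EGR1 and EMP1 the distance above DMSO was the larger. Both distances are taken from the same DMSO arrays, and their difference was not tested. The AZD4547 level of EMP1 was dim, so the size of its distance below DMSO is uncertain.

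The next falls were those of signalling and secreted proteins. TNFRSF12A (the receptor of TWEAK) stood at 5.64 and 5.68 with AZD4547, 8.57 and 8.57 with aFGF and 6.53 and 6.63 with DMSO (log2 -0.92, SE 0.06). LIF, a pleiotropic cytokine, stood at 4.42 and 4.35 with AZD4547, 8.18 and 8.18 with aFGF and 5.23 and 5.25 with DMSO (log2 -0.85, SE 0.06). PHLDA3, an inhibitor of AKT, stood at 5.44 and 5.45 with AZD4547, 7.32 and 7.31 with aFGF and 6.35 and 6.22 with DMSO (log2 -0.84, SE 0.06). None of these groups overlapped. MAP3K14, the kinase NIK of the alternative NF-kappaB pathway, had a log2 difference of -0.94 (SE 0.10). It was not called when AZD4547 replicate 2 was left out or with its second brightest probe set, which gave -0.35. The adenosine receptor ADORA2B (-0.72), dim in both groups, and the membrane protein MALL (-0.70) completed the 15 largest falls together with SLC7A5 and NOP16, which are described below. The neuropeptide precursor VGF stood at 5.40 and 5.52 with AZD4547, 10.16 and 10.15 with aFGF and 6.06 and 6.12 with DMSO (log2 -0.63, SE 0.06, limma adjusted p = 0.00035).

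**Figure D2:**
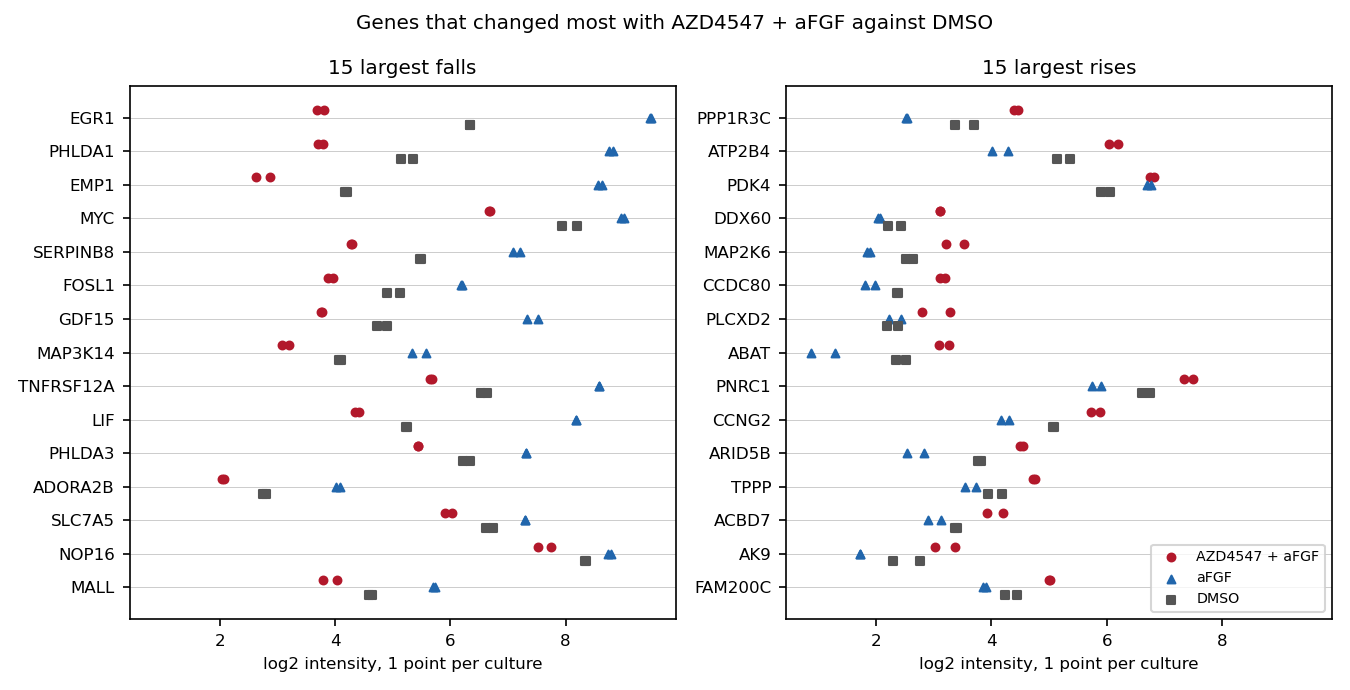
Log2 intensity (x axis) of the 15 genes with the largest falls (left) and the 15 with the largest rises (right) against DMSO, 1 point per culture. Red circles are AZD4547 with aFGF, blue triangles aFGF and grey squares DMSO. In the left panel each gene is lowest with AZD4547, and in the right panel aFGF lies below DMSO for most genes but at the AZD4547 level for PDK4.

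Feedback inhibitors of ERK and other ERK output genes moved less evenly. Of 26 such genes measured, 9 fell (34.6%) and 2 rose (7.69%), against 2.41% and 2.28% over all genes. Their median log2 difference was -0.12, against -0.01 over all genes. The falls include PHLDA1, FOSL1 and LIF, described above, and FOSL1 is counted again among the immediate early genes below. Members of this list and of the lists below were chosen with earlier results of these data known, so their shares do not test a list. SPRY4, a Sprouty inhibitor of receptor signalling, stood at 7.51 and 7.57 with AZD4547, 8.47 and 8.42 with aFGF and 8.27 and 8.13 with DMSO (log2 -0.66, SE 0.06, limma adjusted p = 0.00029). DUSP6, the cytoplasmic phosphatase of ERK, stood at 9.52 and 9.43 with AZD4547, 9.86 and 9.92 with aFGF and 9.75 and 9.91 with DMSO (log2 -0.35, SE 0.06, limma adjusted p = 0.0077). For both genes the AZD4547 cultures were lowest. With aFGF, SPRY4 lay above DMSO without overlap (log2 0.24, limma adjusted p = 0.015). DUSP6 overlapped between aFGF and DMSO and was not called there (log2 0.06, limma adjusted p = 0.64). DUSP6 was not called when any of the aFGF or AZD4547 arrays was left out. The receptor EPHA2 (-0.45), the ETS factor ETV4 (-0.41), DUSP5 (-0.31), a nuclear ERK phosphatase, and IER3 (-0.23) fell as well. The ETS factor ETV1 (0.56) and IL17RD (0.30), a membrane antagonist of FGF receptors, rose. Other members that are widely used as ERK readouts gave no call, with SPRY2 at 0.05, ETV5 at 0.06, DUSP4 at -0.20 (dim) and CCND1 at -0.10. The falls numbered 4 without either AZD4547 replicate, 5 without either aFGF replicate or with the second brightest probe set of each gene and 3 without the intensity trend. The mean of the probe sets of SPRY4 gave -0.31 with no call.

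Immediate early genes, the first transcripts that a growth factor stimulus raises, fell in 7 and rose in 1 of 34 cases (median log2 -0.14). These are 20.6% and 2.94% of the list, against 2.41% called lower and 2.28% called higher over all genes. Besides EGR1, MYC and FOSL1 the falls were those of NAB2 (-0.68), a co-repressor of EGR1, IER2 (-0.60), KLF10 (-0.49) and the AP-1 subunit JUNB (-0.48). The rise was that of BTG2 (0.54, SE 0.09), an antiproliferative gene that stood at 5.94 and 5.93 with AZD4547, 4.65 and 4.95 with aFGF and 5.36 and 5.44 with DMSO. JUN had log2 differences of -0.13 with AZD4547 and 1.94 with aFGF, both against DMSO. CCN1, a matricellular protein, had -0.09 with AZD4547 and 1.84 with aFGF, and TRIB1, a pseudokinase, 0.02 with AZD4547 and 1.87 with aFGF. These 3 genes were called with aFGF, where 15.6% of genes tested were called (5.92% higher and 9.72% lower), and not with AZD4547. EGR2 (-0.51) and FOS (-0.15) were not called below DMSO. The falls numbered 5 and 4 without AZD4547 replicates 1 and 2, 4 with the second brightest probe sets and 3 without the intensity trend. The rise of BTG2 was not called without either AZD4547 replicate.

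Several genes fell with AZD4547 although aFGF alone gave no call or a small one. They were chosen after their values were seen, and both differences are taken against the same DMSO arrays. NAB2 stood at 4.92 and 4.88 with AZD4547, 5.82 and 5.70 with aFGF and 5.60 and 5.56 with DMSO, a difference of -0.68 (SE 0.07) with AZD4547 and of 0.18 (limma adjusted p = 0.13) with aFGF. HBEGF, a ligand of the EGF receptor, stood at 4.29 and 4.39 with AZD4547, 4.95 and 4.92 with aFGF and 4.79 and 4.84 with DMSO, differences of -0.48 (SE 0.08) with AZD4547 and 0.12 (limma adjusted p = 0.41) with aFGF. CDK4, the kinase that cyclin D activates, stood at 8.35 and 8.30 with AZD4547, 8.55 and 8.61 with aFGF and 8.77 and 8.70 with DMSO, differences of -0.41 (SE 0.05) with AZD4547 and -0.15 (limma adjusted p = 0.067) with aFGF. In all 3 genes the AZD4547 cultures lay below every other culture. For CDK4 the DMSO cultures were the highest. Without AZD4547 replicate 2 none of the 3 genes was called below DMSO, and without AZD4547 replicate 1 only NAB2 was. The second brightest probe set of HBEGF gave -0.064 and no call.

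**Figure D3:**
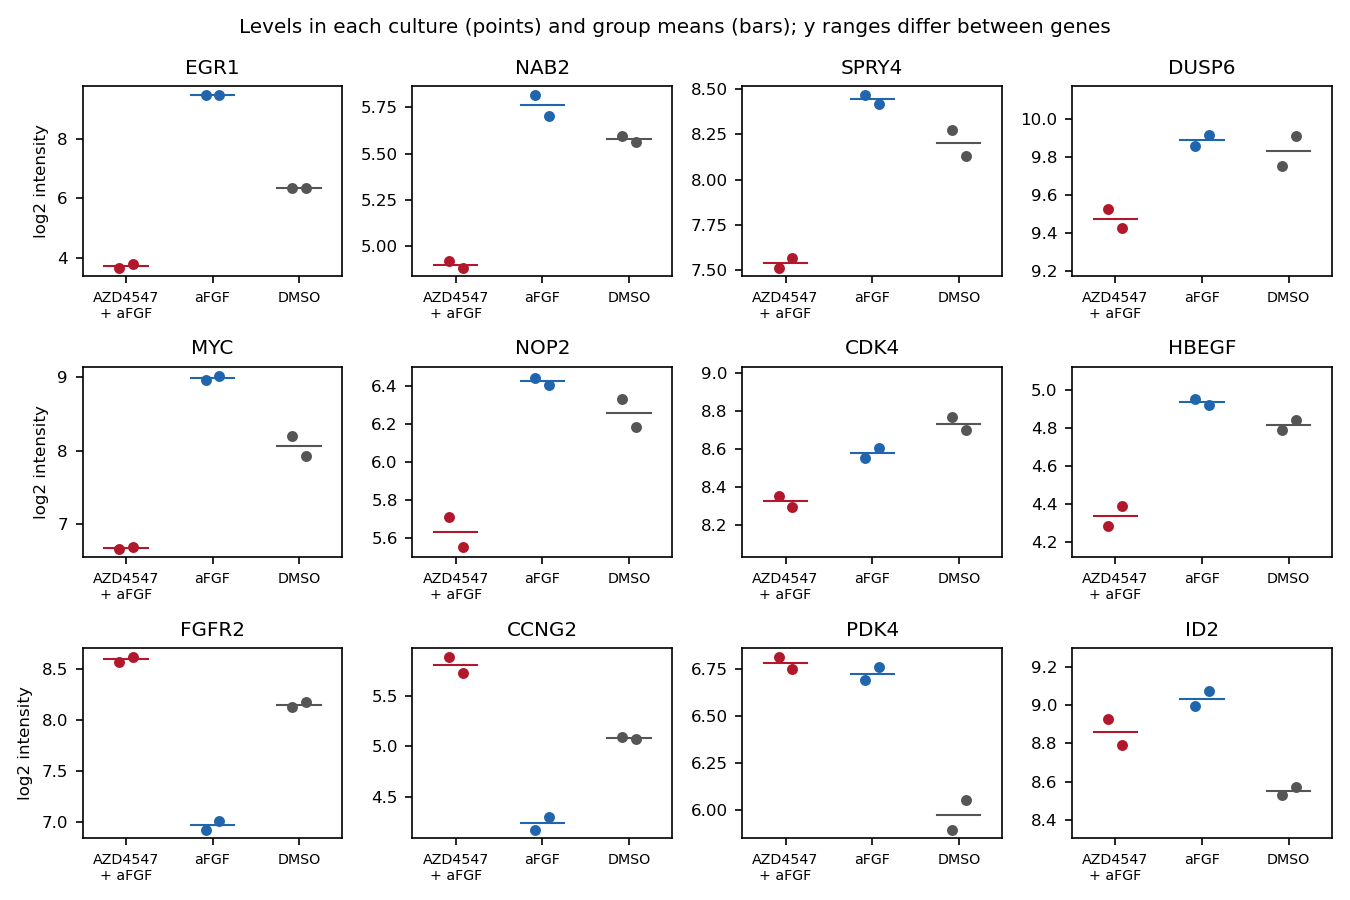
Log2 intensity (y axis, range differs between panels) of 12 genes in each culture (points) with group means (bars), for AZD4547 with aFGF, aFGF and DMSO from left to right. NAB2, SPRY4, DUSP6, NOP2 and HBEGF are lowest with AZD4547 and differ by at most 0.24 between aFGF and DMSO, whereas PDK4 and ID2 are higher than DMSO in both treated groups.

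Most members of a list of ribosome biogenesis genes and MYC targets were lower. The list includes MYC itself and was chosen with earlier results of these data known. Of 43 ribosome biogenesis genes and MYC targets, 31 fell and 0 rose, the median log2 difference was -0.37, and all 43 had a negative difference. Over all genes 2.41% were called lower. NOP16, a nucleolar protein of the large subunit precursor, stood at 7.74 and 7.52 with AZD4547, 8.73 and 8.80 with aFGF and 8.35 and 8.34 with DMSO (log2 -0.71, SE 0.07, limma adjusted p = 0.00041). NOP2, the methyltransferase of the large ribosomal RNA, stood at 5.71 and 5.55 with AZD4547, 6.44 and 6.40 with aFGF and 6.33 and 6.18 with DMSO (log2 -0.62, SE 0.08, limma adjusted p = 0.0017). WDR74, which acts in large subunit assembly, stood at 5.33 and 5.33 with AZD4547, 6.42 and 6.38 with aFGF and 5.88 and 6.05 with DMSO (log2 -0.64, SE 0.07). In each of these genes the AZD4547 cultures lay below both other groups. BYSL (-0.50), a small subunit assembly factor, and the snoRNP proteins NOP56 (-0.41) and DKC1 (-0.37) fell too, whereas the abundant nucleolar proteins NPM1 (-0.05) and FBL (-0.16) were not called. The number of falls was 18 without either aFGF replicate, 6 and 2 without AZD4547 replicates 1 and 2, 16 with the second brightest probe set of each gene and 1, MYC, without the intensity trend.

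**Figure D4:**
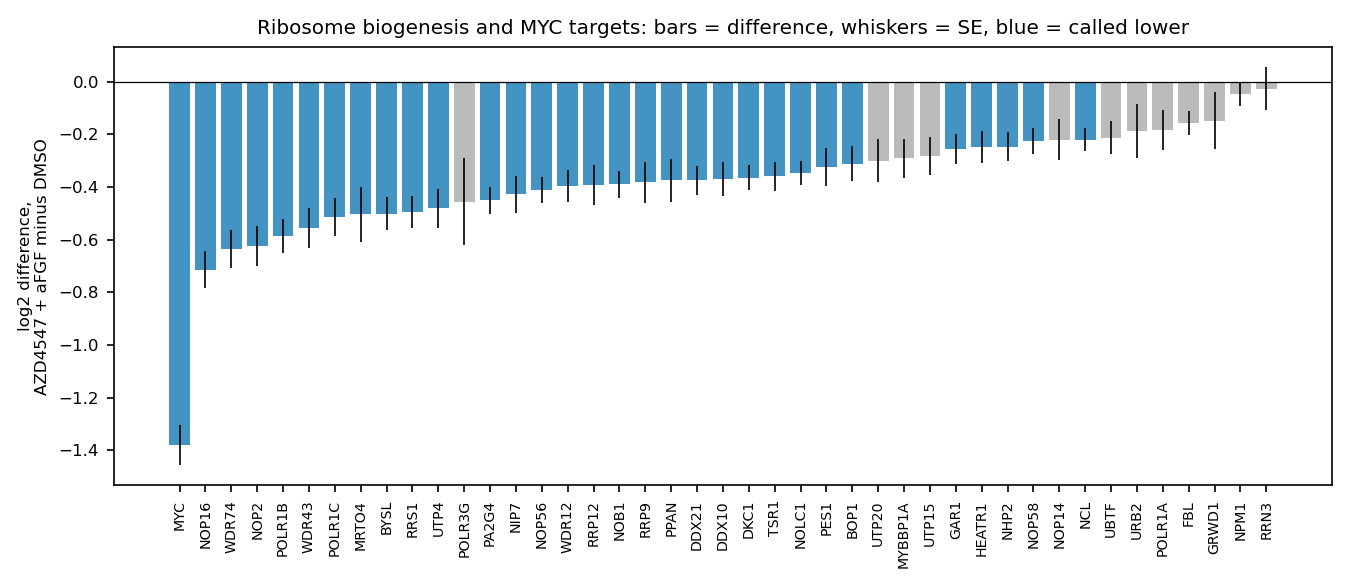
Log2 difference between AZD4547 with aFGF and DMSO (y axis) for the 43 ribosome biogenesis genes and MYC targets, ordered by size, with limma standard errors as whiskers. Blue bars are the 31 genes called lower, and all 43 bars point below 0.

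Complete gene families around this group were chosen after the values were seen. Over all genes 2.41% were called lower and 2.28% higher, and the shares below are set beside these. Of 8 RNA polymerase I subunits, which transcribe ribosomal RNA, 5 fell (62.5%, median -0.32), with POLR1B at -0.59 and POLR1C at -0.52. Of 10 RNA polymerase III subunits, which transcribe transfer RNA, 4 fell (40.0%) and 1 rose (10.0%), with a median of -0.29. POLR3D (-0.42) was among the falls, and POLR3GL, the alternative to the subunit POLR3G, was the rise (0.37). Of 76 mitochondrial ribosomal proteins 14 fell (18.4%) and 0 rose (median -0.12), from MRPS23 at -0.27 to MRPL24 at -0.35. Of 23 subunits of the mitochondrial import translocases 7 fell (30.4%) and 0 rose (median -0.18), TOMM5 (-0.33) and TIMM17A (-0.33) among them. Of 84 cytosolic ribosomal proteins 1 fell (RPL35A, -0.42), which is 1.19% of them, with a median of -0.02. The difference from the other families was not tested. Of 52 translation initiation factors 4 fell (7.69%, median -0.05), EIF4EBP1, the inhibitor of the cap-binding factor, among them (-0.27). Of 61 small nucleolar RNA genes, 40 of them dim, 7 fell (11.5%, median -0.17). Of 18 cytosolic aminoacyl-tRNA synthetases, which charge transfer RNA, 5 fell (27.8%, median -0.15), HARS1 (-0.33) and YARS1 (-0.32) among them. Of 481 numbered zinc finger genes, a large family of DNA-binding proteins, 8 rose (1.66%) and 4 fell (0.83%), against 2.28% and 2.41% over all genes, with a median of 0.02.

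The counts in these families depended on single arrays. Without AZD4547 replicate 2 or without the intensity trend they held 0 calls, and without AZD4547 replicate 1 they held 1, in RNA polymerase I. Without either aFGF replicate the falls numbered 3 in the mitochondrial ribosomal proteins, 2 in RNA polymerase I and 0 in the aminoacyl-tRNA synthetases, the initiation factors and the small nucleolar RNA genes. Without DMSO replicate 2 they numbered 22 in the mitochondrial ribosomal proteins, 11 in the import translocases, 11 in the initiation factors (with 3 rises), 6 in the cytosolic ribosomal proteins (with 3 rises) and 10 in the zinc finger genes (with 11 rises). With the second brightest probe set of each gene 4 mitochondrial and 5 cytosolic ribosomal proteins fell. The cytosolic ribosomal falls numbered 5 with the mean of probe sets and 4 with no _x_at probe sets.

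The windows of CDK4, NOP2 and the amino acid transporter SLC7A5 are shown because they hold the E-box CACGTG (in capitals), the palindrome that MYC binds together with MAX. The window of CDK4 held 3 E-boxes, which start 216, 196 and 101 bases before the gene start. NOP2 held 1, which starts at base 36 after the start, and SLC7A5 held 1, which starts 130 bases before it.
CDK4, chr12:57752261-57752560, minus strand: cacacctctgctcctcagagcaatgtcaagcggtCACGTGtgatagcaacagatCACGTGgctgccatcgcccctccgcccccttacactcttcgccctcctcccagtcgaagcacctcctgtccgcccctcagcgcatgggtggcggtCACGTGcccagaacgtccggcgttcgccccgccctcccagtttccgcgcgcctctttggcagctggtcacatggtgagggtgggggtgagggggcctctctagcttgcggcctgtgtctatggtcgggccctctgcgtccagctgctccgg
NOP2, chr12:6568242-6568541, minus strand: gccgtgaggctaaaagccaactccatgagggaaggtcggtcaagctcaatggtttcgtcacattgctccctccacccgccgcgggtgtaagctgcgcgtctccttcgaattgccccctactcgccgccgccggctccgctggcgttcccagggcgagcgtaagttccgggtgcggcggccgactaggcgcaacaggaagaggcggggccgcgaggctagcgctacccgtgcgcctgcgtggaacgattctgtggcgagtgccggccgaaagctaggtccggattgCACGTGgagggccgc
SLC7A5, chr16:87869458-87869757, minus strand: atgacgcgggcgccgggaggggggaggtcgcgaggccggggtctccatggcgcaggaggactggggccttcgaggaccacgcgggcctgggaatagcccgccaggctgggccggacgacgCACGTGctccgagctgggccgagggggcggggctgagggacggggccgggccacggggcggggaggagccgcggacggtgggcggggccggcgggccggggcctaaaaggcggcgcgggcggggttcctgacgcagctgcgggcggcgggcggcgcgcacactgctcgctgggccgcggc
Among genes with a window, the E-box was found in 77 of 371 genes called lower (20.8%), in 40 of 368 called higher (10.9%) and in 1617 of 14809 tested (10.9%). In the ribosome biogenesis and MYC target list it was found in 13 of 35 genes (37.1%). That list was chosen in part as MYC targets, so its share is not a test of MYC sites among the falls. These shares describe letters in the windows. The base composition of the windows, which bears on such matches, was not compared, and the part of MYC in the falls was not tested.

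Transporters and enzymes that supply amino acids fell in part. Of 35 genes of amino acid transport, transfer RNA charging and the ATF4 response, 9 fell and 0 rose (median log2 -0.12). The falls are 25.7% of the list, against 2.41% over all genes. SLC7A5, the large neutral amino acid transporter, stood at 6.03 and 5.91 with AZD4547, 7.29 and 7.29 with aFGF and 6.63 and 6.74 with DMSO (log2 -0.71, SE 0.07, limma adjusted p = 0.00033). SLC7A1, a transporter of cationic amino acids, stood at 5.16 and 5.24 with AZD4547, 6.43 and 6.30 with aFGF and 5.82 and 5.75 with DMSO (log2 -0.59, SE 0.07). The mitochondrial folate enzyme MTHFD2 (-0.40, SE 0.07) and the glutamine transporter SLC1A5 (-0.33, SE 0.06) fell with AZD4547, and their differences with aFGF were 0.03 and -0.04 with no call. SLC3A2 (-0.29), the heavy chain that pairs with SLC7A5, fell as well. Targets of ATF4 such as ASNS (-0.12), PSAT1 (-0.03), TRIB3 (-0.09) and CHAC1 (-0.11), and ATF4 itself (-0.16), were not called. The falls numbered 1 without either AZD4547 replicate, 2 without either aFGF replicate, 3 with the second brightest probe sets and 0 without the intensity trend. The second brightest probe sets of SLC7A5 (-0.30) and SLC7A1 (-0.27) gave no call.

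Receptor transcripts moved in different directions. FGFR2 stood at 8.57 and 8.62 with AZD4547, 6.92 and 7.01 with aFGF and 8.13 and 8.17 with DMSO, so that the AZD4547 cultures lay above both other groups (log2 0.44, SE 0.05, limma adjusted p = 0.0017). FGFR3 was higher (5.58 and 5.58 with AZD4547, against 5.15 and 5.35 with DMSO, log2 0.33, SE 0.08, limma adjusted p = 0.041) and FGFR1 lower (9.25 and 9.31 with AZD4547, against 9.51 and 9.47 with DMSO, log2 -0.21, SE 0.05, limma adjusted p = 0.028). FGFR4 was not called (4.74 and 4.73 with AZD4547, against 4.80 and 4.86 with DMSO, log2 -0.09, SE 0.08, limma adjusted p = 0.60). FGFR2 was not called when either AZD4547 replicate was left out, and the calls of FGFR1 and FGFR3 held in 8 of 17 alternatives. The second brightest probe set of FGFR3 gave 0.016. Among 27 FGF receptors, ligands and adaptors 4 rose (14.8%) and 2 fell (7.41%), against 2.28% and 2.41% over all genes (list median 0.02). The ligand FGF2 (0.28) and the docking protein GAB1 (0.38, SE 0.09) rose, and the adaptor SHC1 fell by 0.33 on the log2 scale (SE 0.05). The adaptors FRS2 (-0.06) and GRB2 (0.02) and the phosphatase PTPN11 (0.02) were not called. Without either AZD4547 replicate the list held 0 calls, and without either aFGF replicate it held 1 rise and 1 fall.

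Of 31 genes from RAS to ERK and parallel MAP kinases, 2 rose, MAP2K6 (0.79), a kinase of p38 that was dim in DMSO, and the ERK effector kinase MKNK2 (0.27). These 2 rises are 6.45% of the list, against 2.28% over all genes, and numbered 0 without either AZD4547 replicate or with the second brightest probe sets and 5 without DMSO replicate 2 or with the replicate block. BRAF (0.02) and MAP2K1 (0.15) were not called. Among 29 other receptor kinases and ligands 2 rose (6.90%) and 1, HBEGF, fell (3.45%), against 2.28% and 2.41% over all genes. DDR2, a collagen receptor, stood at 6.03 and 6.28 with AZD4547, 4.62 and 4.62 with aFGF and 5.51 and 5.63 with DMSO (log2 0.59, SE 0.09, limma adjusted p = 0.0047). RET, the receptor kinase of GDNF family ligands, stood at 3.86 and 3.76 with AZD4547, 2.20 and 2.09 with aFGF and 3.16 and 3.34 with DMSO (log2 0.56, SE 0.12, limma adjusted p = 0.022). Both receptors were highest with AZD4547 and lowest with aFGF, with no overlap, and RET was dim with aFGF. The call of RET was lost without any array except DMSO replicate 2, and that of DDR2 without AZD4547 replicate 2. The second brightest probe set of RET gave 0.22. EGFR (0.16), ERBB3 (0.22), IGF1R (0.13) and MET (-0.24) were not called.

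The largest rises were smaller than the largest falls. PPP1R3C, which targets a phosphatase to glycogen, stood at 4.39 and 4.45 with AZD4547, 2.53 and 2.52 with aFGF and 3.36 and 3.70 with DMSO (log2 0.89, SE 0.12, limma adjusted p = 0.0026). ATP2B4, a plasma membrane calcium pump, stood at 6.20 and 6.04 with AZD4547, 4.28 and 4.02 with aFGF and 5.36 and 5.13 with DMSO (log2 0.88, SE 0.11). PNRC1, a nuclear receptor coactivator, stood at 7.50 and 7.35 with AZD4547, 5.90 and 5.74 with aFGF and 6.76 and 6.62 with DMSO (log2 0.74, SE 0.08, limma adjusted p = 0.00094). In these genes the aFGF cultures were lowest and the AZD4547 cultures highest. ARID5B (0.72), a DNA-binding coactivator, TPPP (0.68), which promotes tubulin polymerisation, ACBD7 (0.67) and FAM200C (0.67) followed the same order of groups. PPP1R3C and ARID5B were dim with aFGF. The rises of DDX60 (0.80), MAP2K6, CCDC80 (0.78), PLCXD2 (0.76), the GABA transaminase ABAT (0.74) and AK9 (0.67) started from dim DMSO levels. The second brightest probe set gave a negative difference for PLCXD2 (-0.37), ACBD7 (-0.060) and AK9 (-0.065), so their direction is uncertain. It gave small differences with no call for CCDC80 (0.036), ABAT (0.042), MAP2K6 (0.21) and PPP1R3C (0.23), and that of ATP2B4 (0.45) was not called either. CCDC80, ABAT, MAP2K6, PPP1R3C and ATP2B4 were not called when either AZD4547 replicate was left out, nor PNRC1 without AZD4547 replicate 1.

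PDK4, the kinase that shuts off pyruvate dehydrogenase, was higher than DMSO in both treated groups. It stood at 6.82 and 6.75 with AZD4547, 6.69 and 6.76 with aFGF and 5.90 and 6.06 with DMSO. The difference against DMSO was 0.81 (SE 0.07, limma adjusted p = 0.00021) with AZD4547 and 0.75 (SE 0.07) with aFGF, and the treated groups overlapped. The second brightest probe set of PDK4 gave 0.38 and no call. ID2, an inhibitor of helix-loop-helix factors, stood at 8.93 and 8.79 with AZD4547, 8.99 and 9.08 with aFGF and 8.53 and 8.57 with DMSO (log2 0.31 with AZD4547 and 0.49 with aFGF, SE 0.06 each). CYLD, a deubiquitinase that restrains NF-kappaB, had log2 differences of 0.37 with AZD4547 and 0.41 with aFGF, and the sterol carrier STARD4 of 0.32 with AZD4547 and 0.78 with aFGF. The growth arrest gene GAS1 had 0.33 with AZD4547 and 0.52 with aFGF. These genes, which share the DMSO arrays in both differences, were chosen after their values were seen. With AZD4547, CYLD was called in 8 of 17 alternatives, STARD4 in 7 of 17 and ID2 in 9 of 15. None of these 3 was called without any 1 of the AZD4547 and aFGF arrays, nor CYLD and STARD4 without DMSO replicate 1, and the mean of the probe sets of CYLD gave 0.14.

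Some genes that restrain proliferation and some genes of mitosis rose. Both lists were chosen with earlier results of these data known. Of 30 CDK inhibitors and quiescence genes 8 rose (26.7%, against 2.28% over all genes) and 0 fell (median log2 0.23). CCNG2, an atypical cyclin of arrested cells, stood at 5.89 and 5.73 with AZD4547, 4.17 and 4.30 with aFGF and 5.09 and 5.07 with DMSO (log2 0.73, SE 0.08, limma adjusted p = 0.0013). TP53INP1 (0.67, SE 0.11), BTG2 and the antiproliferative gene TOB1 (0.41, SE 0.07) rose as well, although the second brightest probe set gave -0.039 for TP53INP1 and no call for CCNG2 (0.42) and TOB1 (0.16). The CDK inhibitor CDKN2C (0.32), the Krüppel-like repressor KLF9 (0.39), GAS1 and YPEL5 (0.30) rose, and CDKN1B (0.38, limma adjusted p = 0.050) and CDKN1A (0.04) were not called. Of 39 genes of G2/M and mitosis 14 rose (35.9%, against 2.28% over all genes) and 0 fell (median 0.18). CENPA, the centromeric histone, stood at 7.42 and 7.47 with AZD4547, 6.78 and 6.76 with aFGF and 7.03 ± 0.04 (mean ± SD, n = 2) with DMSO (log2 0.42, SE 0.06, limma adjusted p = 0.0024). TOP2A, the topoisomerase of chromosome segregation, stood at 8.38 and 8.39 with AZD4547, 7.57 and 7.38 with aFGF and 7.97 and 8.02 with DMSO (log2 0.39, SE 0.06).

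The kinetochore gene NDC80 (0.41) and the phosphatase CDC25C (0.37), which activates CDK1, rose in the same way, while CCNA2 (0.06), PLK1 (0.02), AURKB (0.01) and MKI67 (0.16) were not called. Genes of G1/S and DNA replication gave 1 call among 42, the fall of CDK4 (median 0.06). This is 2.38% of the list, against 2.41% called lower over all genes. CCNE1 (0.02), MCM2 (0.14), PCNA (0.12) and E2F1 (0.20) were not called. The rises in the mitosis list numbered 0 without either AZD4547 replicate, 2 without either aFGF replicate, 5 with the second brightest probe sets and 0 without the intensity trend. Those in the quiescence list numbered 0 and 1 without AZD4547 replicates 1 and 2, 4 without either aFGF replicate, 3 with the second brightest probe sets and 0 without the intensity trend. In these bulk cultures a different share of cells in a phase and a different level per cell cannot be told apart.

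Over all genes 2.28% were called higher and 2.41% lower, and the shares in this paragraph are set beside these. Of 31 FOXO factors, which AKT keeps out of the nucleus, and their targets, 4 rose (12.9%) and 0 fell (median log2 0.14). These were PDK4, CCNG2 and the mitophagy receptors BNIP3L (0.45, SE 0.06) and BNIP3 (0.40, SE 0.06). BNIP3L stood at 7.39 and 7.35 with AZD4547, 6.68 and 6.70 with aFGF and 6.95 and 6.90 with DMSO, with no overlap. In the BCL2 family 3 of 20 rose, BAD (0.30, SE 0.07), a pro-apoptotic member, beside BNIP3 and BNIP3L, which the list shares. The pro-apoptotic genes BCL2L11 (-0.14), BBC3 (0.02) and PMAIP1 (-0.29) and the protective genes BCL2 (-0.17), BCL2L1 (0.03) and MCL1 (-0.05) were not called. In glycolysis and pyruvate metabolism 4 of 32 rose (12.5%) and 1 fell (3.1%). PPP1R3C, counted among these rises, targets a phosphatase to glycogen and is not a glycolytic enzyme. Besides PPP1R3C and PDK4 the rises were PFKFB4 (0.51, SE 0.09), a regulator of glycolytic flux, and the aldolase ALDOC (0.36, SE 0.06), and the fall was the lactate transporter SLC16A1 (-0.27). SLC2A1 (-0.01), HK2 (-0.06), PKM (0.11) and LDHA (0.09) were not called. In cholesterol synthesis 4 of 28 rose (14.3%), INSIG2 (0.48), LSS (0.35), STARD4 and FDFT1 (0.22), while HMGCS1 (0.08) and SQLE (0.01) were not called. Without AZD4547 replicates 1 and 2 the rises were 1 and 2 in the FOXO list, 0 and 0 in the BCL2 family, 1 and 1 in glycolysis and 0 and 0 in cholesterol synthesis. Without DMSO replicate 2 they numbered 9 in glycolysis and 10 in cholesterol synthesis. In cholesterol synthesis they numbered 1 without DMSO replicate 1 and 0 without either aFGF replicate. With the second brightest probe sets there were 2 rises in the FOXO list, 1 in the BCL2 family, 0 in glycolysis and 1 in cholesterol synthesis, and without the intensity trend 0 in each list. With the replicate block the FOXO list had 7.

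Calls in the interferon, NF-kappaB, plasminogen and cytokine lists are read against 2.28% called higher and 2.41% called lower over all genes. The members were chosen with earlier results of these data known, so a share above these is not a test of a list. Of 46 interferon response genes, 23 of them dim, 3 rose (6.52%), DDX60, IFIT1 (0.55, SE 0.09) and STAT2 (0.37, SE 0.08), and the second probe set of STAT2 gave -0.21. IFIT1, an antiviral RNA-binding protein, stood at 6.26 and 6.02 with AZD4547, 4.17 and 4.16 with aFGF and 5.57 and 5.60 with DMSO. The rises in this list numbered 0 and 1 without AZD4547 replicates 1 and 2, 1 with the second brightest probe sets, 5 without DMSO replicate 2 and 6 with the replicate block. Among 23 NF-kappaB factors and regulators NFKBIZ (0.38) and CYLD rose (8.70%) and MAP3K14 fell (4.35%). The 2 rises numbered 0 when any array except DMSO replicate 2 was left out. Of 30 genes of the plasminogen system, serpins and invasion, 3 fell (10.0%), EMP1, SERPINB8 and VGF. EMP1 and VGF are neither serpins nor genes of the plasminogen system. CPA4, a carboxypeptidase, had log2 differences of -0.27 with AZD4547 and 2.87 with aFGF, and the tissue plasminogen activator PLAT of -0.11 with AZD4547 and 1.60 with aFGF. CPA4 and PLAT were both called with aFGF and not with AZD4547, whereas EMP1 and VGF were called in both comparisons. CPA4 was dim with AZD4547. Of 29 TGF-beta superfamily and cytokine genes GDF15 and LIF fell (6.90%) and ID2 rose (3.45%), and CLCF1, a cytokine of the LIF family, was not called (-0.26).

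Of 31 genes of matrix, adhesion and mesenchyme, 14 of them dim, 5 rose (16.1%, against 2.28% over all genes), ATP2B4 and CCDC80 among them. ATP2B4, the calcium pump described above, is not a gene of matrix or adhesion. The members were chosen with earlier results of these data known, so this share is not a test of the list. NREP, a regulator of TGF-beta synthesis, stood at 7.55 and 7.55 with AZD4547, 5.41 and 5.53 with aFGF and 7.06 ± 0.07 (mean ± SD, n = 2) with DMSO (log2 0.49, SE 0.06, limma adjusted p = 0.0021). The collagens COL5A2 (0.36) and COL1A2 (0.23) were the other rises. VIM (-0.09), CDH2 (0.07) and ZEB1 (0.07) were not called. Among 18 endometrial lineage genes, 10 of them dim, the homeobox gene MSX1 rose (0.36, SE 0.08), which is 5.56% of the list. Lysosome and autophagy genes gave 0 calls by limma among 27 (7 at an unadjusted p under 0.05), the largest difference being that of WIPI1 (0.24, limma adjusted p = 0.22). Without either AZD4547 replicate the rises in the matrix list and the endometrial list numbered 0. With the second brightest probe sets the matrix list had 2, and COL5A2 gave 0.089.

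**Figure D5:**
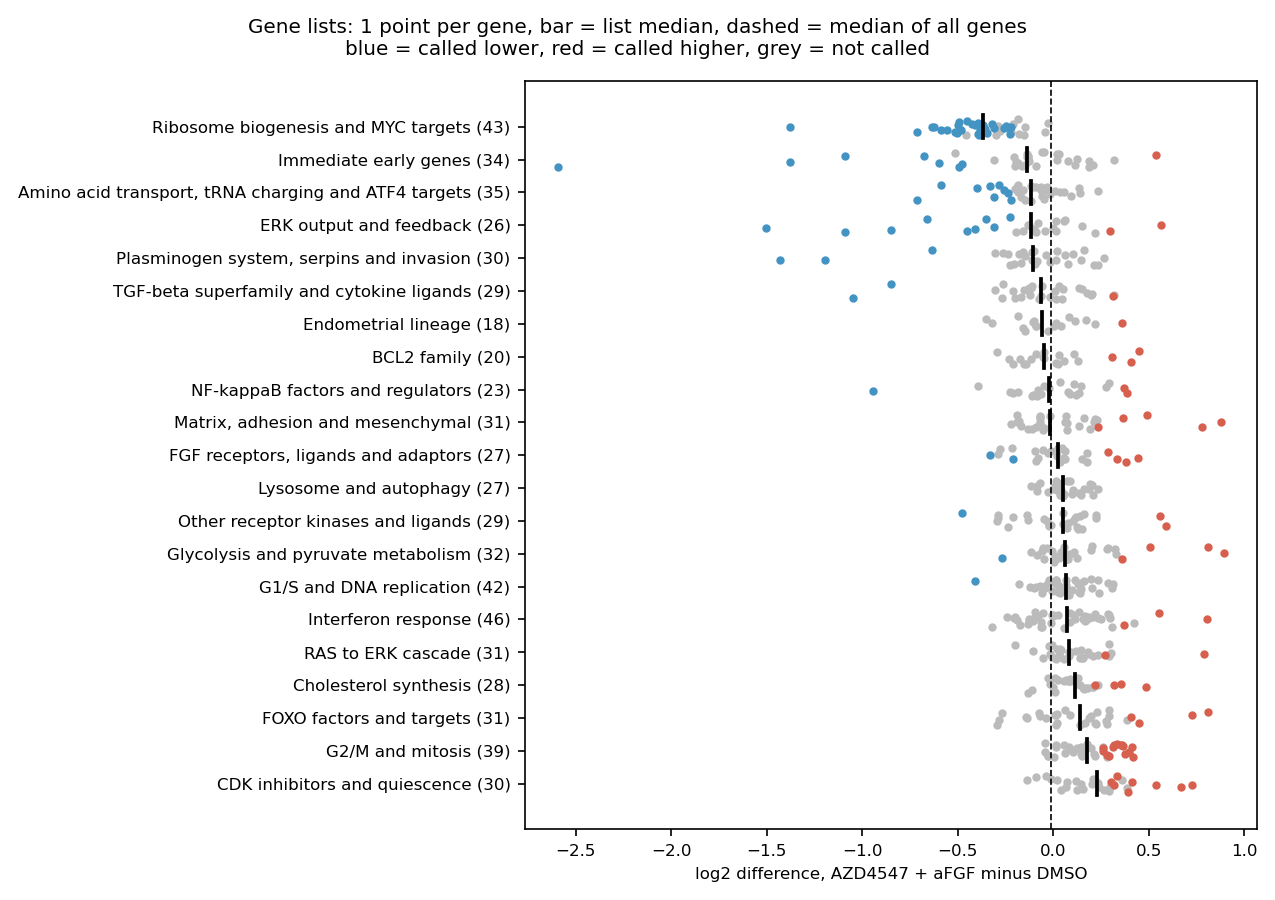
Log2 difference between AZD4547 with aFGF and DMSO (x axis) for each member of 21 gene lists (1 point per gene, number measured in parentheses), ordered by list median (black bars). The dashed line is the median of all genes, -0.01. The ribosome biogenesis list has the lowest median (-0.37) and the quiescence list the highest (0.23).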

How the data were processed

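Expression was measured in 6 cultures of the AN3-CA line on Affymetrix arrays, 2 per group, with no array type given. The deposited intensity values are linear and run from 0.75 to 6344; the submitters' processing notes name RMA (background correction, quantile normalization and probe summary) with no version, and the step back to a linear scale is not given. The plan had allowed for log2 values, so the values were turned to log2 without a pseudocount and tested on that scale. The authors' deposited ratio and p-value columns were not used.

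Of 49293 probe sets, 47340 carried 1 gene symbol, 1457 several and 496 none. Symbols were updated through Entrez identifiers in a RefSeq gene table, which matched 47089 probe sets and changed 5313 symbols. Of 19040 genes, 12320 had more than 1 probe set, and the one with the highest mean over the 6 arrays was kept.

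A model of group means over the 6 arrays was fitted in R 4.3.3 using limma 3.58.1 (lmFit, contrasts.fit, eBayes with an intensity trend), two-sided, with Benjamini-Hochberg adjustment over all genes at 0.05. The fit was tested on simulated data. The number of arrays limits the precision: the median SE of a log2 difference was 0.117, and an exact permutation test of 2 against 2 cultures cannot go below 0.333. Samples of the same number were checked for pairing and deviated together by correlations of -0.073 to 0.102, so the numbers were not taken to pair them.

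The members and the 21 gene lists were chosen with earlier results of these data known, and the gene families and motifs after the values were seen. Named genes were the 15 largest falls and 15 largest rises among called genes, up to 4 called members of each list, FGFR1 to FGFR4 and DUSP6, besides further list members given as values. IGF2, FOXO6 and OCLN had no single-symbol probe set. The alternatives covered variance trend, arrays in the fit, dim genes, normalization, pseudocount, probe set choice, deposited table, replicate block and each array left out. RefSeq windows from 250 bases before to 50 after a gene start, on GRCh38.p14, were searched for motifs on both strands.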

Additional observations from a re-analysis of the deposited data

How the results depend on the processing

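The count of genes called between AZD4547 with aFGF and DMSO (892, with 434 higher and 458 lower) depended most on the variance model and the arrays. Without the intensity trend 10 genes were called, 0 higher and 10 lower. With only the 4 arrays compared there were 217 (96 higher, 121 lower), and with the second probe set of each gene 347 (143 higher, 204 lower). Leaving out 1 array gave 29 to 1556 calls, 7 to 772 higher and 21 to 784 lower. The lowest counts came from leaving out AZD4547 replicate 1 (43) or 2 (29) and the highest from leaving out DMSO replicate 2. A lone culture was then assumed to vary like the other groups. Counts stayed within 1.5 times without dim genes (1259), with median centring (769), quantile normalization (922), a pseudocount of 4 (866), no _x_at probe sets (797), the mean of probe sets (822) and the series table (892). With the replicate block there were 1201 calls (629 higher, 572 lower). The numbers share no stated source, so this pairing is not taken as the design. For aFGF over DMSO (2979 calls) there were 1489 without the trend, 1399 with the second probe set, 3302 with the replicate block and 1147 to 3448 with 1 array left out. The cause of these shifts was not tested.

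Of 75 named genes, 64 had a second probe set, and 59 of these moved the same way. The direction was reversed for PLCXD2 (-0.37), ACBD7 (-0.060), AK9 (-0.065), TP53INP1 (-0.039) and STAT2 (-0.21), and for aFGF over DMSO in TPPP (0.073) and BNIP3 (0.015). No other alternative reversed a named gene. WIPI1 and FGFR4, among the named genes, were not called between AZD4547 with aFGF and DMSO and so had no call to lose. Of the 75, 63 lost their call without the intensity trend, 53 and 55 without AZD4547 replicates 1 and 2, 24 without either aFGF replicate and 29 with the second probe set. With 2 cultures per group and no detection calls, changes at dim levels have an uncertain size. Of the called genes, 28 had a mean below the dim level.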

Other observations

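Outside the rule for named genes, further called genes were chosen after their values were seen. A pair of related genes, TMT1A and TMT1B (earlier METTL7A and METTL7B, both methyltransferases), went opposite ways. TMT1A stood at log2 intensities of 8.49 and 8.45 with AZD4547 plus aFGF, 5.76 and 5.77 with aFGF and 7.88 and 7.86 with DMSO, a difference against DMSO of 0.60 with AZD4547 (SE 0.05, limma adjusted p = 0.00025) and -2.11 with aFGF. TMT1B stood at 5.43 and 5.54 with AZD4547 plus aFGF, 7.28 and 7.33 with aFGF and 6.18 and 6.03 with DMSO, a difference of -0.62 with AZD4547 (SE 0.07, limma adjusted p = 0.0013) and 1.20 with aFGF. For both genes the DMSO cultures lay between the other groups.

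RARB, a retinoic acid receptor, rose by a log2 difference of 0.66 (SE 0.08). DPH2, an enzyme of diphthamide synthesis, fell by 0.68 on the log2 scale (SE 0.08), TWNK, the mitochondrial DNA helicase, by 0.61 (SE 0.07) and the homeobox gene HOXC10 by 0.59 (SE 0.05). TMT1A, TMT1B, RARB, DPH2, TWNK and HOXC10 were not among the 10 genes called without the intensity trend. Their results under the other alternatives are not given here.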
